A study of Mus musculus with 12 samples.

Results

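This account covers 7 genes whose products let a macrophage speak to a T cell: the co-stimulatory genes Cd40, Cd80, Cd86, Cd83 and Icosl, and the checkpoint ligand genes Cd274 and Pdcd1lg2. They were chosen by symbol, each symbol matched 1 row among the 21899 genes of the deposited table, and all 7 passed the filter on low counts, as did 11656 genes in all. RNA sequencing was done on primary macrophages grown from the bone marrow of wild-type mice, a cell that takes up and presents antigen. There were 4 groups of 3 libraries: a control, cells given PgLPS, cells given CS-PA/CNP, and cells given the pair, called both agents here. The labels expand neither name and give no dose, time, strain or age, and no other agent is named for any group. The series title speaks of a composite hydrogel for periodontitis and hypertension.

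A T cell that meets its antigen needs a further signal from the presenting cell. CD80 and CD86 give that signal by binding CD28, and they are also bound by the inhibitory receptor CTLA-4. ICOS ligand, encoded by Icosl, acts on the related receptor ICOS. CD40 works the other way round: it is a receptor of the tumour necrosis factor family on the presenting cell, and the T cell carries its ligand. CD83 is a surface protein best known from mature dendritic cells that holds CD86 and MHC class II at the surface. PD-L1, encoded by Cd274, and PD-L2, encoded by Pdcd1lg2, bind PD-1 and restrain T cells. Bacterial products and interferons are known to raise many of these molecules on macrophages. Messenger was measured here, not surface protein.

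The members lie on 6 chromosomes: Cd40 (ENSMUSG00000017652) on chromosome 2, Icosl (ENSMUSG00000000732) on 10, Cd83 (ENSMUSG00000015396) on 13, Cd80 (ENSMUSG00000075122) and Cd86 (ENSMUSG00000022901) on 16, and Cd274 (ENSMUSG00000016496) with Pdcd1lg2 (ENSMUSG00000016498) on 19. Cd274 and Pdcd1lg2 are neighbours in the deposited table, on the same strand with 22823 bases and 0 genes of that table between them. No member overlapped another gene of the table. The GENCODE annotation of GRCm38 places 1 antisense gene over Cd274 and 1 over Pdcd1lg2, and their reads cannot be told apart, since no source here says whether the libraries were stranded.

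The promoters of Cd274 and Cd80 are shown because these genes had the largest and the smallest fitted change with PgLPS. RefSeq promoter windows on GRCm38.p6, from 250 bases before to 50 bases after the transcript start, were found for 4 of the 7 members (Cd80, Cd274, Pdcd1lg2 and Icosl). The Cd274 window is chr19:29367188-29367487 and the Cd80 window chr16:38458683-38458982, both on the plus strand, and capitals mark a motif match.
Cd274: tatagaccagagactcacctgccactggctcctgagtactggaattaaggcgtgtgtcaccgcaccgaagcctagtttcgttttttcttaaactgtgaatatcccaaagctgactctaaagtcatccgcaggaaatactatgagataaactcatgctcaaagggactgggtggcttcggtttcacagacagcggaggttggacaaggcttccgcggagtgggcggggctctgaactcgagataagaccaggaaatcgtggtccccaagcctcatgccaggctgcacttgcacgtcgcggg
Cd80: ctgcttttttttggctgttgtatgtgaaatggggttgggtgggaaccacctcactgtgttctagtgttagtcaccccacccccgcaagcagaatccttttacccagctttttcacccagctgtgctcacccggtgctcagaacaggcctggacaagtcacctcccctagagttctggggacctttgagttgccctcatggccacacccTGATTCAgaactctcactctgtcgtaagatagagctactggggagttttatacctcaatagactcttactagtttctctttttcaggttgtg
Both strands were searched for an NF-kB motif, the AP-1 motif TGANTCA, the interferon gamma-activated site TTCNNNGAA, an interferon-stimulated response element and the PU.1 motif GAGGAAGT. The 1 match among the 4 windows was an AP-1 match, read as TGATTCA, starting 42 bases before the Cd80 transcript start. An AP-1 match was found in 7.81% of the 32851 promoter windows of the table, against 1.47% for NF-kB, 8.30% for the gamma-activated site, 3.44% for the response element and 3.20% for PU.1. The matches are letters in a short window, and longer upstream regions were not searched.

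Total reads ran from 14992707 to 20082900 per library, and levels are given as CPM, read counts scaled to library size with TMM factors. All 10 macrophage markers looked at had reads, with a summed level of 20200 to 21600 CPM in control and 29400 to 31800 CPM with PgLPS. Most of that sum was Lyz2, at a mean of 15400 CPM in control and 17600 CPM with PgLPS. Of the 10, 8 rose with PgLPS and 2 fell, Cd68 (log2 fold change −0.32 ± 0.06) and Mrc1 (−0.95 ± 0.08), where 63.8% of all tested genes were called. Of the T cell markers 2 passed the filter, Lck and Cd4, and Lck rose with PgLPS, while Cd3d and Cd8a had 0 reads in all 12 libraries and the list summed to 7.74 to 13.6 CPM per library. Of the 10 dendritic cell markers 6 did not pass the filter, with 10 to 67 reads each over the 12 libraries, and 4 did: Itgax, Fscn1, Batf3 and Xcr1, with 46742, 537, 487 and 307 reads. In bulk RNA, a change in the share of cells that make a message and a change per cell cannot be told apart. Sample titles call the replicates biological but name no animal or culture, so a p-value reflects the spread between libraries, whatever its source.

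PgLPS against control asks how the macrophages' co-signalling messages responded to PgLPS. Of the 7 members 5 rose (Cd40, Cd86, Cd274, Pdcd1lg2 and Icosl), 1 fell (Cd83), and Cd80 was not called. Pdcd1lg2, with 15 reads in control and 94 with PgLPS, passed the filter on low counts through the PgLPS libraries. It was removed by that filter in 2-group fits without them. Over all tested genes 63.8% were called, 32.2% higher and 31.6% lower (BH-adjusted p under 0.05, edgeR). The split of calls depends on the scaling: 50.5% of called genes were higher with TMM factors and 21.8% on library totals. The median log2 fold change was 2.76 over the members and 0.00 over all tested genes. The plot of CPM by library shows each value.

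**Figure D1:**
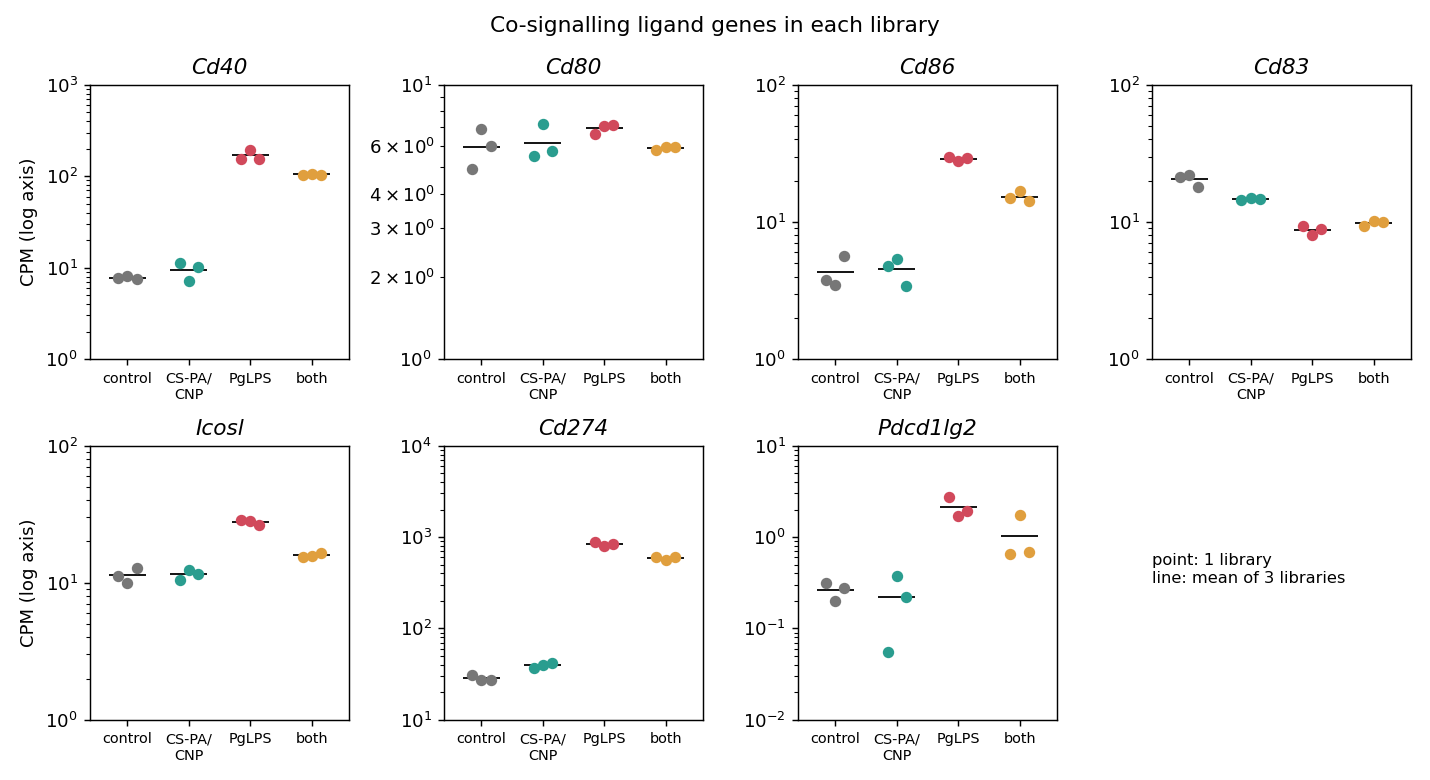
Level of each of the 7 genes in CPM (log axis, scaled per gene) in the 12 libraries; points are libraries and lines are means of 3. Cd274 goes from 28.5 CPM in control to 840 with PgLPS, Cd83 is highest in control, and Cd80 stays between 4.93 and 7.23 CPM throughout.

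Cd40, the receptor for the T cell's CD40 ligand, stood at 7.76, 8.05 and 7.44 CPM in the control libraries and at 156.6, 194.2 and 156.3 CPM with PgLPS. The groups were far apart, with 133 to 160 reads per control library and 2053 to 2988 with PgLPS. The log2 fold change was 4.44 ± 0.12 (SE, n = 3 libraries per group; edgeR BH-adjusted p = 2.2e-16), and 1.69% of tested genes had a larger fold. With both agents Cd40 was at 104.3, 107.3 and 102.8 CPM, below each PgLPS library and above each control library.

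The genes of the CD28 ligands, Cd80 and Cd86, gave different calls. Cd86 was at 3.77, 3.47 and 5.65 CPM in control and at 29.7, 27.9 and 29.2 CPM with PgLPS, with no overlap, and rose by 2.76 ± 0.17 on the log2 scale (edgeR BH-adjusted p = 3.3e-11). Cd80 was at 4.93, 6.89 and 5.99 CPM in control and at 6.64, 7.08 and 7.14 CPM with PgLPS. These ranges overlapped, and the log2 fold change of 0.23 ± 0.16 (95% interval −0.11 to 0.57) was not called (edgeR BH-adjusted p = 0.23). Its sign also depended on scaling, with −0.19 on library totals. In reads of the same library, which need no scaling, Cd86 had 0.504 to 0.944 reads per Cd80 read in control and 3.94 to 4.48 with PgLPS. The log2 ratio differed by 2.54, with a pooled SD of 0.33 (2-sided exact permutation p = 0.10, the smallest that 3 against 3 allows; BH-adjusted 0.15 over 20 ratio comparisons).

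**Figure D2:**
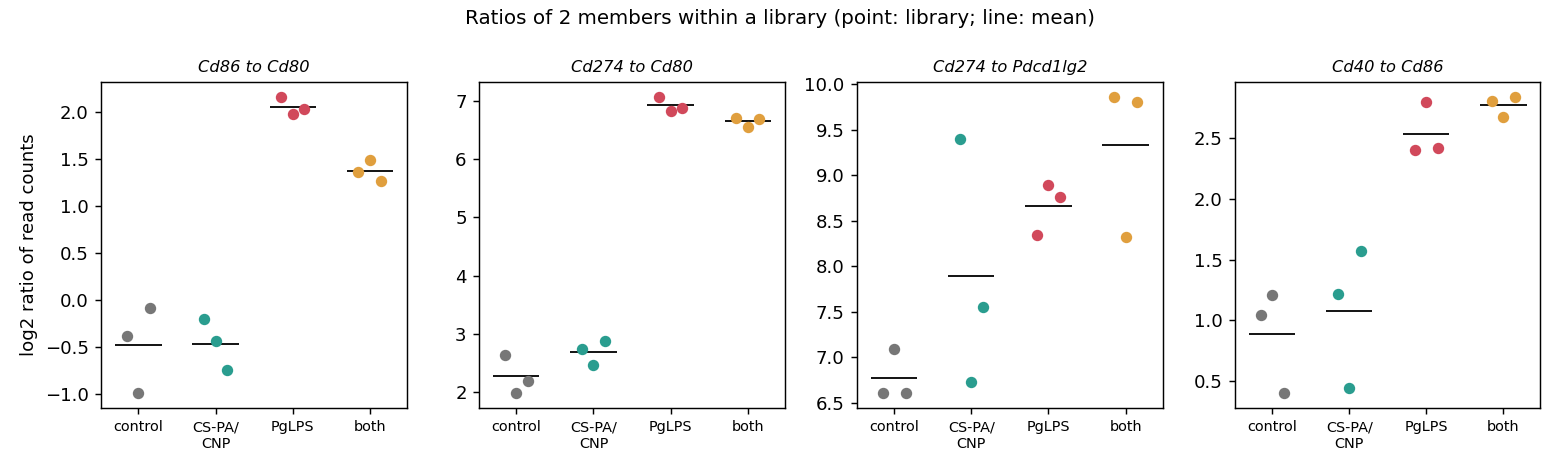
log2 ratio of read counts of 2 members in the same library, by group; points are libraries and lines are means of 3. Cd86 per Cd80 lies near −0.48 in control, 2.06 with PgLPS and 1.37 with both agents, while Cd274 per Pdcd1lg2 spreads widely where Pdcd1lg2 has few reads.

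Cd83 was the 1 member that fell with PgLPS. It stood at 21.3, 22.0 and 18.1 CPM in control and at 9.30, 7.99 and 8.94 CPM with PgLPS, so every PgLPS library lay under every control library. The log2 fold change was −1.23 ± 0.11 (edgeR BH-adjusted p = 1.9e-08). Icosl, the ICOS ligand gene, was at 11.3, 9.91 and 12.9 CPM in control and 28.9, 28.2 and 26.4 CPM with PgLPS, and the groups did not overlap. It rose by 1.30 ± 0.11 on the log2 scale (edgeR BH-adjusted p = 5.1e-09).

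The PD-1 ligand genes rose from very different levels. Cd274 was at 30.7, 27.4 and 27.3 CPM in control and 886.6, 799.1 and 833.4 CPM with PgLPS, and rose by 4.88 ± 0.08 on the log2 scale (edgeR BH-adjusted p = 6.6e-20). It had the largest fold of the 7, and 1.47% of tested genes had a larger one. Pdcd1lg2 had only 4 to 6 reads per control library and 26 to 36 with PgLPS. In CPM that was 0.315, 0.201 and 0.280 in control and 2.75, 1.69 and 1.92 with PgLPS, without overlap. Its log2 fold change was 2.96 with a wide standard error of 0.52 (edgeR BH-adjusted p = 6.0e-05). Reads of Cd274 per Pdcd1lg2 read went from between 97.6 and 136 in control to between 323 and 473 with PgLPS (2-sided exact permutation p = 0.10, BH-adjusted 0.15).

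Levels of different genes were compared per kilobase of the gene length in the deposited table. In control, Cd83 at 7.95 and Cd274 at 7.86 CPM per kilobase were the highest and overlapped each other. Icosl (2.46) and Cd40 (2.27) followed and overlapped, as did Cd80 (1.60) and Cd86 (1.17), and Pdcd1lg2 was lowest at 0.135 CPM per kilobase. With PgLPS the order was Cd274 (232), Cd40 (49.6), Cd86 (7.91), Icosl (6.03), Cd83 (3.40), Cd80 (1.88) and Pdcd1lg2 (1.08), and no neighbours overlapped. Cd274 made up 32.1% to 35.3% of the summed per-length level of the 7 genes in control and 74.2% to 78.5% with PgLPS, while Cd83 went from 30.8% to 36.4% down to 1.04% to 1.17%. The sum itself was 23.5 ± 0.58 CPM per kilobase in control and 302 ± 8.9 with PgLPS (SD, n = 3). Being taken within a library, the shares do not depend on the scaling.

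**Figure D3:**
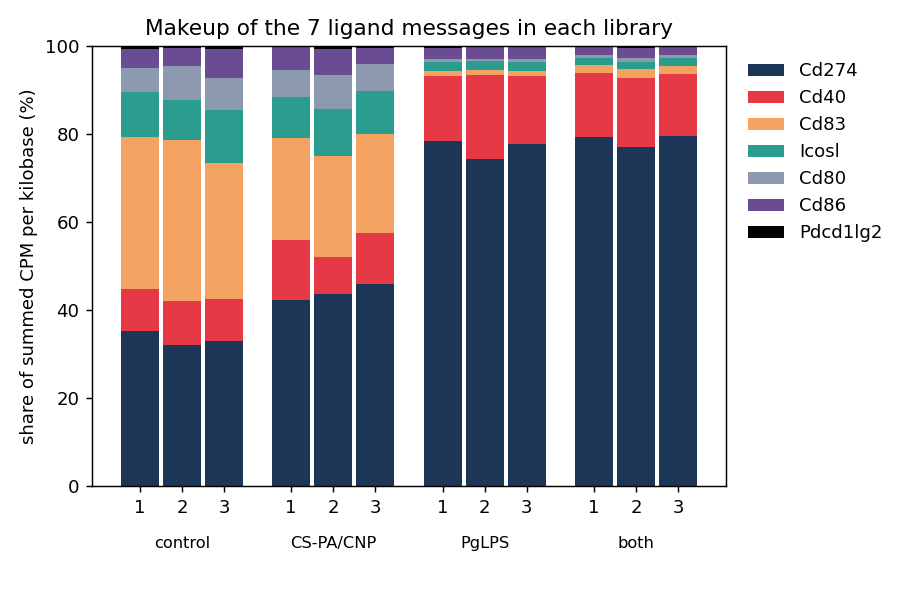
Share of each gene in the summed CPM per kilobase of the 7 genes, 1 stacked bar per library, libraries numbered 1 to 3 in each group. Cd274 and Cd83 make up most of the control bars, and Cd274 with Cd40 most of the PgLPS and both-agent bars.

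Both agents were set against PgLPS to ask how the messages differed when CS-PA/CNP was present beside it. Of the 7 members 4 fell (Cd40, Cd86, Cd274 and Icosl) and 0 rose, against 19.5% of all tested genes, 10.0% lower and 9.42% higher (BH-adjusted p under 0.05, edgeR). At an unadjusted p under 0.05, 5 fell and 0 rose, but the share over all genes was not computed at that threshold. DESeq2 also called 4 lower and 0 higher, where it called 2480 of the 11656 tested genes, 1189 of them higher. The median log2 fold change was −0.69 over the members and −0.01 over all tested genes. Of all called genes 48.4% were higher, and 61.4% on library totals. This comparison and the preceding one share the PgLPS libraries.

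Cd86 was at 14.9, 16.8 and 14.3 CPM with both agents, between control and PgLPS, and every library lay under the lowest PgLPS library (27.9 CPM). It fell by 0.92 ± 0.15 on the log2 scale, a fold of 1.89 (edgeR BH-adjusted p = 1.4e-04). Icosl was at 15.4, 15.6 and 16.6 CPM, also below every PgLPS library, and fell by 0.81 ± 0.11 (edgeR BH-adjusted p = 1.8e-05). Cd40 fell by 0.69 ± 0.10 (edgeR BH-adjusted p = 4.3e-05) without overlap. Cd274 was at 603.5, 555.6 and 611.9 CPM, under the lowest PgLPS library, and fell by 0.51 ± 0.06 (edgeR BH-adjusted p = 8.7e-06), a fold of 1.42.

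The other members were not called. Pdcd1lg2 had 10, 30 and 10 reads with both agents, or 0.651, 1.74 and 0.681 CPM, and library 2 overlapped the PgLPS range. Its log2 fold change was −1.01 ± 0.43 (edgeR BH-adjusted p = 0.12, between 0.0252 and 0.321 in the alternatives). When library 2 of both agents was left out it was −1.65 (edgeR BH-adjusted p = 0.0252). Cd83 was at 9.31, 10.1 and 9.95 CPM, just above the highest PgLPS library (9.30 CPM), at 0.17 ± 0.12 on the log2 scale (95% interval −0.09 to 0.42; edgeR BH-adjusted p = 0.39). Cd80 was at 5.80, 5.96 and 5.93 CPM, all under the lowest PgLPS library (6.64 CPM), with −0.24 ± 0.17 (95% interval −0.59 to 0.11; edgeR BH-adjusted p = 0.36). Reads of Cd86 per Cd80 read were 2.41 to 2.82 with both agents against 3.94 to 4.48 with PgLPS, without overlap (2-sided exact permutation p = 0.10, BH-adjusted 0.15).

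Per kilobase, Cd274 at 163 CPM and Cd40 at 30.8 CPM still led with both agents, and Cd274 made up 77.0% to 79.5% of the summed level, a range that overlaps that of PgLPS. The sum was 207 ± 7.0 CPM per kilobase, against 302 ± 8.9 with PgLPS. Below them, Cd86 (4.18) and Cd83 (3.81) overlapped, and Icosl followed at 3.43 CPM per kilobase.

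Against control, both agents together left 5 members higher and 1 lower (58.0% of tested genes were called, 29.7% higher and 28.4% lower; of the called genes 51.1% were higher, and 21.3% on library totals). The log2 fold changes were 4.37 ± 0.08 for Cd274, 3.76 ± 0.12 for Cd40, 1.84 ± 0.17 for Cd86, 0.48 ± 0.11 for Icosl and −1.06 ± 0.11 for Cd83, with edgeR BH-adjusted p from 3.1e-19 to 0.0012. Pdcd1lg2 was higher by 1.95 ± 0.56 (edgeR BH-adjusted p = 0.0058), a call lost when library 2 of both agents was left out (1.31, adjusted p = 0.0817 by edgeR). It did not pass the filter on low counts in a fit of these 2 groups. The Icosl call was lost on library totals (0.12, edgeR BH-adjusted p = 0.345), while Cd80, at −0.01 ± 0.16 and not called, was called lower there (−0.37, edgeR BH-adjusted p = 0.0478). On that scale the median over all tested genes shifted from −0.01 to −0.37 here and from 0.00 to −0.42 in PgLPS against control.

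The response to PgLPS was also read in cells that had CS-PA/CNP in both arms. Of the 7 members 5 rose and 1 fell in both agents against CS-PA/CNP (51.9% of tested genes were called, 26.6% higher and 25.4% lower; of the called genes 51.2% were higher, and 20.3% on library totals). The log2 fold changes were 3.89 ± 0.07 for Cd274, 3.46 ± 0.12 for Cd40, 2.21 ± 0.57 for Pdcd1lg2, 1.78 ± 0.17 for Cd86, 0.46 ± 0.11 for Icosl and −0.59 ± 0.11 for Cd83, with edgeR BH-adjusted p from 1.4e-18 to 0.0033. Without library 2 of both agents Pdcd1lg2 was at 1.57, and it did not pass the filter on low counts in a fit of these 2 groups. On library totals the Icosl call was lost (0.14, edgeR BH-adjusted p = 0.291) and Cd80 was called lower (−0.38, edgeR BH-adjusted p = 0.0436), against −0.06 ± 0.16 and no call on the TMM scale.

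CS-PA/CNP against control asks what the material did to these messages without PgLPS. Of the 7 members 1 rose, Cd274, and 1 fell, Cd83, where 12.3% of all tested genes were called, 6.67% higher and 5.61% lower (BH-adjusted p under 0.05, edgeR). Of the called genes 54.3% were higher, and 41.9% on library totals. Cd274 was at 37.2, 40.0 and 42.2 CPM, above every control library, and rose by 0.48 ± 0.07 on the log2 scale (edgeR BH-adjusted p = 1.3e-04). Cd83 was at 14.4, 15.1 and 14.7 CPM, below every control library, with −0.48 ± 0.11 (edgeR BH-adjusted p = 0.0046). The folds were 1.40 for Cd274 and 1.39 for Cd83, beside 29.5 and 2.34 in PgLPS against control, which uses the same control libraries. Cd40 was at 11.2, 7.23 and 10.1 CPM, with library 2 below all control libraries, and its log2 fold change of 0.30 ± 0.14 missed the threshold (edgeR BH-adjusted p = 0.21, between 0.03 and 0.602 in the alternatives). Without library 2 of CS-PA/CNP it was 0.45 and called (edgeR BH-adjusted p = 0.03).

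The remaining members overlapped control. Cd80 had a log2 fold change of 0.05 (95% interval −0.29 to 0.39), Cd86 0.07 (−0.33 to 0.47) and Icosl 0.03 (−0.21 to 0.27), and each sign turned when single libraries were left out. Pdcd1lg2 had 1, 7 and 5 reads with CS-PA/CNP, and its interval of −1.73 to 1.22 excludes neither a rise nor a fall of 2-fold.

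The effect of CS-PA/CNP beside PgLPS was then set against its effect without PgLPS as an interaction in the same fit. It was negative for Cd40 (−0.99 ± 0.17), Cd274 (−0.99 ± 0.10), Cd86 (−0.98 ± 0.24) and Icosl (−0.84 ± 0.16), and positive for Cd83 (0.64 ± 0.16), with edgeR BH-adjusted p from 4.7e-07 to 0.0089. Over all tested genes 15.8% were called, 8.34% negative and 7.46% positive. Of the called genes 47.2% were positive, and 63.7% on library totals. For Cd274 the 2 effects had opposite signs, 0.48 without PgLPS and −0.51 beside it. For Cd83 they were −0.48 and 0.17, the second not called. Cd80 (−0.29 ± 0.23) and Pdcd1lg2 (−0.75 ± 0.85) were not called.

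**Figure D4:**
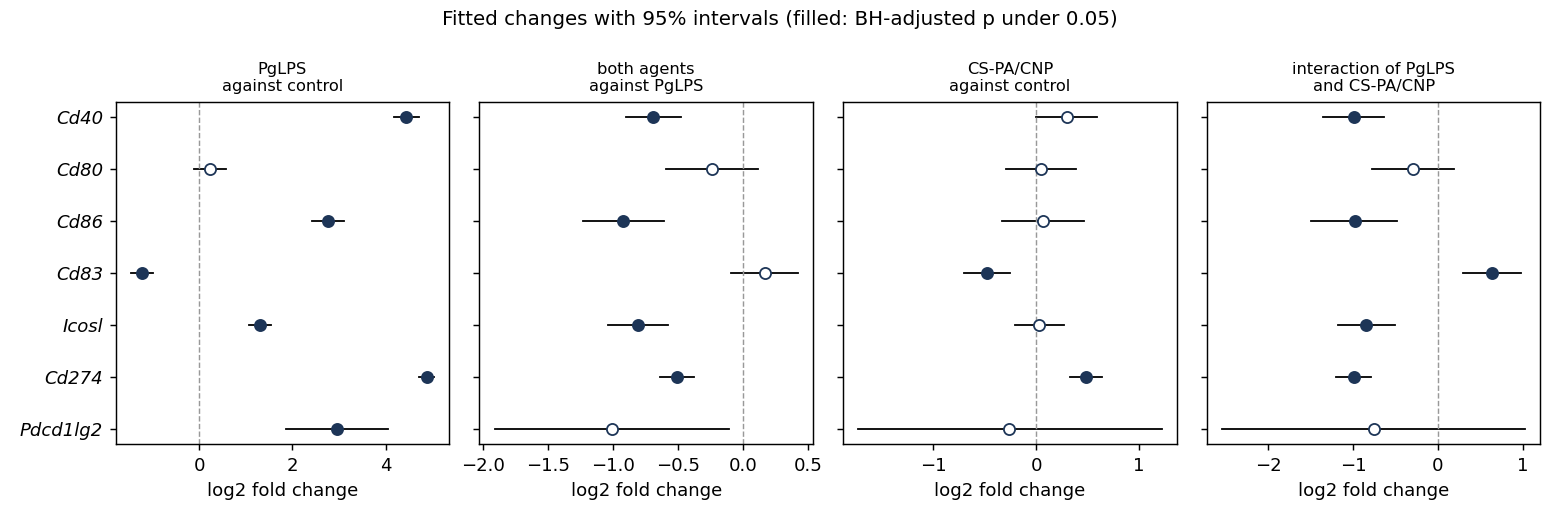
Fitted log2 fold change of the 7 genes (rows) in 3 comparisons and in the interaction, with 95% intervals; each panel has its own horizontal axis, and filled points are called. Cd40, Cd86, Icosl and Cd274 are right of 0 with PgLPS and left of 0 in both agents against PgLPS, and Pdcd1lg2 has the widest intervals.

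Other cell types that carry these molecules were looked at through their markers. B cell markers summed to 15.1 to 16.4 CPM in the control libraries, to 12.8 to 19.3 CPM for CS-PA/CNP, 16.2 to 17.8 CPM for PgLPS and 17.5 to 22.4 CPM for both agents. Of 5 tested, 0 were called in PgLPS against control, where 63.8% of all tested genes were called. The dendritic cell markers, most of it Itgax, which macrophages also express, summed to 236 to 240, 184 to 202, 231 to 279 and 244 to 265 CPM in the same order. Of 4 tested, 2 rose with PgLPS, Xcr1 and Fscn1, where 32.2% of all tested genes were higher. Fscn1, an actin-bundling protein of mature dendritic cells, went from 0.172 ± 0.10 to 8.12 ± 1.2 CPM, and was at 3.02 ± 0.59 CPM with both agents. Xcr1, a chemokine receptor of cross-presenting dendritic cells, went from 0.249 ± 0.075 to 2.42 ± 1.1 CPM and was at 3.49 ± 0.25 CPM with both agents, not called against PgLPS. Itgax averaged 240 ± 24 CPM with PgLPS and 242 ± 11 CPM with both. Ccr7, below the filter, had 1 read in control, 3 with CS-PA/CNP, 39 with PgLPS and 24 with both. Neutrophil markers summed to 118 to 142, 92.7 to 131, 194 to 220 and 156 to 176 CPM. Of 4 tested, S100a8 (1.37 ± 0.11) and S100a9 (0.77 ± 0.12) rose with PgLPS. Ngp (0.12 ± 0.11) and Mpo (−0.63 ± 0.55) were not called. Ly6g and Elane, below the filter, had 14 and 19 reads in control and 3 and 6 with PgLPS. Stromal markers had 703, 162 and 98 reads in the PgLPS libraries, 9 to 54 in the control libraries, 10 to 39 with CS-PA/CNP and 32 to 69 with both agents. Of 4 tested, 4 rose with PgLPS, where 32.2% of all tested genes were higher. With both agents against PgLPS 3 fell, where 10.0% of all were lower. The stromal markers moved in the same directions as most members. Among them Pdgfrb, a receptor of mesenchymal cells, averaged 0.180 ± 0.14 CPM in control, 3.66 ± 1.1 CPM in the PgLPS libraries and 0.784 ± 0.033 CPM in those of both agents. The part of these marker changes in the results was not tested. Without PgLPS library 1, 5 members rose and 1 fell with PgLPS, and 4 fell with both agents against PgLPS. With all libraries kept, 63.8% and 19.5% of all tested genes were called in these comparisons. PgLPS libraries 2 and 3, kept in the fit without library 1, still held 162 and 98 stromal reads, so that fit does not separate the members from these markers.

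Of the 6 genes for partners of these molecules, only Cd28 and Rgmb passed the filter on low counts. Cd40lg, the CD40 ligand gene, had 1 read in all 12 libraries, Icos 18, Ctla4 14, all of them with PgLPS, and Pdcd1, the PD-1 gene, 11. Cd28, the receptor for CD80 and CD86, averaged 17.5 ± 0.87 CPM in control libraries, 10.5 ± 2.0 CPM for CS-PA/CNP, 1.38 ± 0.98 CPM for PgLPS and 1.96 ± 0.24 CPM for both agents (SD, n = 3). It fell by 3.72 ± 0.26 on the log2 scale with PgLPS (edgeR BH-adjusted p = 3.6e-10), and by 4.42 without PgLPS library 1. Which cells the Cd28 reads came from was not tested. Rgmb, a binding partner of PD-L2, had 20.7 to 29.4 CPM as group means and was not called in PgLPS against control or in both agents against PgLPS. It was higher with both agents than in control (0.39 ± 0.10, edgeR BH-adjusted p = 0.0028) and than with CS-PA/CNP (0.51 ± 0.10, edgeR BH-adjusted p = 3.5e-04), and both calls were lost on library totals (0.03 and 0.19).

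Of 24 other co-signalling genes tested, 17 rose and 4 fell with PgLPS, with a median log2 fold change of 1.06, where 63.8% of all tested genes were called. The largest rises were in the tumour necrosis factor ligand Tnfsf15 (5.18 ± 0.45), the adhesion receptor Slamf1 (4.94 ± 0.57), the inhibitory receptor Pilra (4.50 ± 0.07) and the TIM-3 ligand galectin-9, Lgals9 (4.0 ± 0.07). Tnfsf15 had 9 reads in control and ran from 4.76 to 5.68 in the alternatives. Slamf1, with 7 reads in control, stood at 4.33 without control library 2 and 5.55 without control library 3. With both agents against PgLPS 10 of these 24 fell and 6 rose (median −0.22; 19.5% of all tested genes were called), with Tnfsf15 at −2.43 ± 0.34, Slamf1 at −2.23 ± 0.43 and Pilra at −0.75 ± 0.06. Tnfsf4, the OX40 ligand, went the other way at 2.40 ± 0.38 (edgeR BH-adjusted p = 1.2e-04): control libraries averaged 0.104 ± 0.047 CPM, those of CS-PA/CNP 0.890 ± 0.21, those of PgLPS 0.624 ± 0.20 and those of both agents 3.33 ± 0.93. With CS-PA/CNP alone 4 rose and 1 fell (median 0.06; 12.3% of all tested genes were called), Tnfsf4 by 3.0 ± 0.56 from 6 reads, the adhesion ligand Icam1 by 1.14 ± 0.07 and Pilra by 0.70 ± 0.07, and Cd72 fell by 0.71 ± 0.11.

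**Figure D5:**
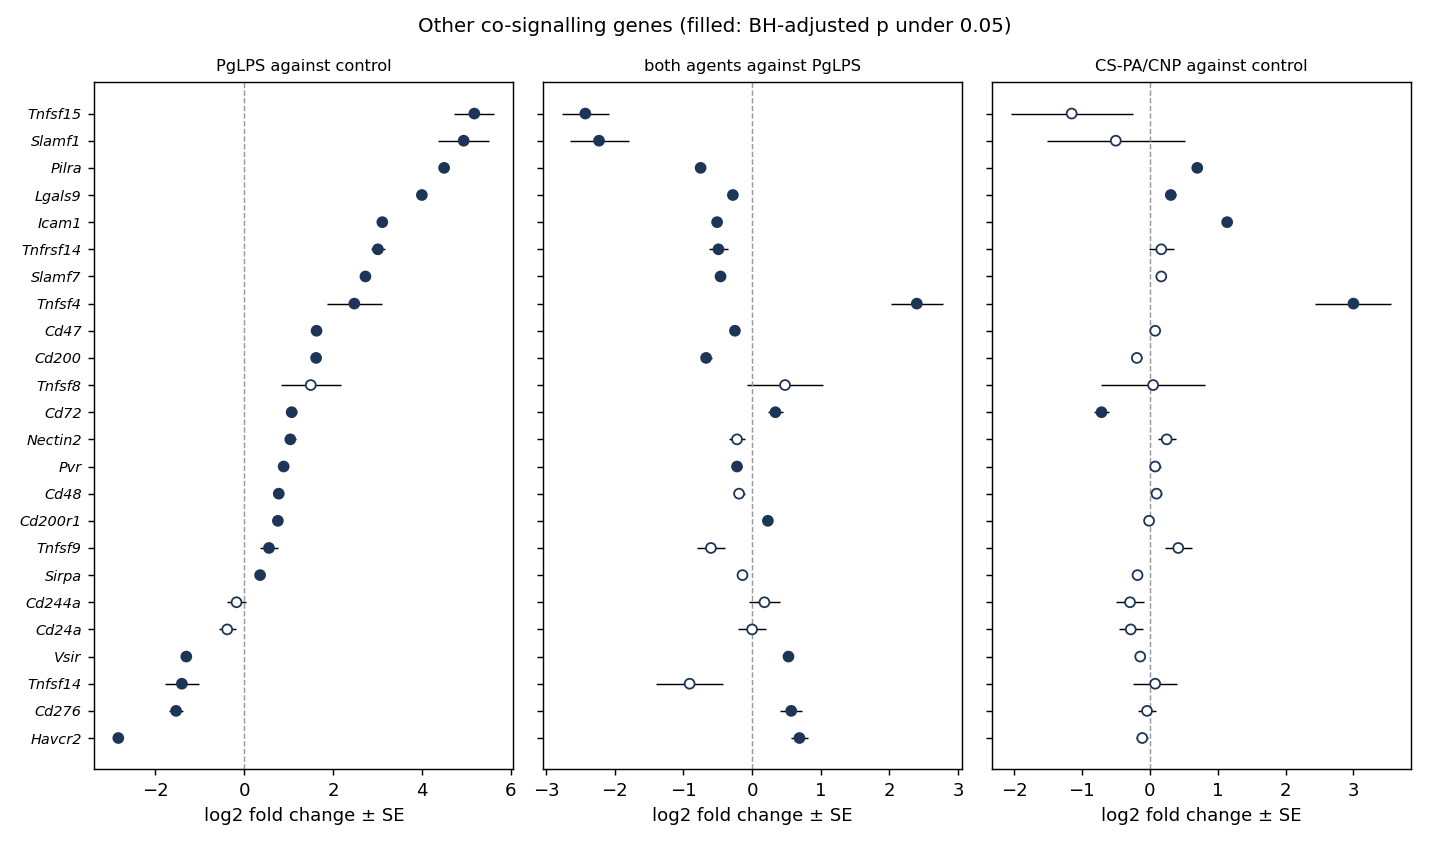
log2 fold change ± SE of the 24 other co-signalling genes tested (rows, ordered by the PgLPS change) in 3 comparisons; filled points are called, and each panel has its own horizontal axis. Tnfsf15 and Slamf1 lie farthest right with PgLPS and farthest left in the middle panel, where Tnfsf4 is alone at 2.40.

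CD40 passes its signal through TRAF adapters to the alternative NF-kB pathway. Of 12 genes listed for CD40 signalling, a list not limited to that pathway, 11 rose and 1 fell with PgLPS (median 0.94; 63.8% of all tested genes called), led by the adapter Traf1 at 5.53 ± 0.13, the NF-kB subunit Nfkb2 at 2.58 ± 0.07, the inhibitor of apoptosis Birc3 at 2.38 ± 0.07 and Traf2 at 1.84 ± 0.08. The 1 that fell was Map3k14 (−0.48 ± 0.09). With both agents against PgLPS 5 fell and 1 rose (median −0.30, with 19.5% of all called). Traf1 was at −1.48 ± 0.10 and Nfkb2 at −0.89 ± 0.07, and the 1 that rose was Map3k14 (0.32 ± 0.09). With CS-PA/CNP alone 6 rose and 0 fell (median 0.17; 12.3% of all called), with Traf1 at 1.24 ± 0.15, the subunit Relb at 0.72 ± 0.08 and Nfkb2 at 0.69 ± 0.07. The interaction was negative for 5 of the 12 (15.8% of all called), Traf1 being at −2.72 ± 0.18. Traf1 itself averaged 4.09 ± 0.68 CPM in control libraries, 9.55 ± 1.8 CPM for CS-PA/CNP, 188 ± 18 CPM for PgLPS and 67.5 ± 4.2 CPM for both agents.

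Some proteins set how much of a member stays at the cell surface. Marchf1, a ubiquitin ligase that removes CD86 and MHC class II from the surface, rose from 57.5 ± 6.3 to 544 ± 43 CPM with PgLPS (log2 3.24 ± 0.08, edgeR BH-adjusted p = 5.0e-17) and was at 322 ± 19 CPM with both agents (−0.76 ± 0.07 against PgLPS, edgeR BH-adjusted p = 5.0e-07). Cmtm6 and Cmtm4 both protect PD-L1 from breakdown. With PgLPS Cmtm6 rose by 0.58 ± 0.06, from 112 ± 2.5 to 169 ± 3.8 CPM (0.17 on library totals), and Cmtm4 fell by 0.82 ± 0.10, from 53.8 ± 4.0 to 30.5 ± 4.4 CPM. Hip1r, also in this list, rose by 1.62 ± 0.40, from 37 reads in control to 92 with PgLPS. Of the 9 genes in this list, 6 rose and 2 fell with PgLPS (median 0.34), beside 63.8% of all tested genes called. With both agents against PgLPS 1 fell and 0 rose (median −0.03), beside 19.5% of all.

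Of 14 transcription factors known to act on the members, 10 rose and 1 fell with PgLPS (median 0.86; 63.8% of all tested genes called), among them the interferon regulatory factor Irf1 at 2.28 ± 0.10, the hypoxia-inducible factor Hif1a at 2.19 ± 0.10, and Ciita, the master regulator of MHC class II, at 1.83 ± 0.34. With both agents against PgLPS 5 fell and 1 rose (median −0.06; 19.5% of all called), with Hif1a at −1.73 ± 0.10, Nfkb1 at −0.62 ± 0.06 and Stat3 at −0.52 ± 0.06, and the AP-1 subunit Fos at 0.65 ± 0.06.

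The genes whose profiles were most like each member's were found by the smallest root mean square difference of log2(CPM + 0.5) over the 12 libraries, after each gene's mean was subtracted. For Cd274 they were Ms4a6b (0.111), Aoah (0.143) and Ifi203 (0.175), for Cd40 Ifi214 (0.202), Lgals9 (0.209) and H2-T22 (0.211), and for Cd86 Agtrap (0.215), Naaa (0.223) and Nupr1 (0.233). Icosl was closest to Acvr1b (0.102), Polm (0.116) and Akna (0.119), and Pdcd1lg2 to Slc38a6 (0.254), Samsn1 (0.269) and the co-signalling gene Cd200 (0.275). Cd83 lay nearest Dock2 (0.085), Man1c1 (0.091) and Rtn4 (0.105), and Cd80 nearest Arfrp1 (0.091), Mterf4 (0.093) and Timm22 (0.099). Ifi214 had 0.0349 CPM in control, where the added 0.5 CPM flattens its profile. The same holds for Pdcd1lg2 itself, at a mean of 0.265 CPM in control and 0.219 CPM with CS-PA/CNP. Among the members themselves, Cd40 and Cd274 were the closest pair (0.32) and Cd83 and Cd274 the farthest (2.65).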

How the data were processed

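RNA was sequenced from 12 libraries of mouse bone marrow-derived macrophages, 3 in each of 4 groups. The authors deposited, for each gene, a whole-number read count per library and its length, and only these were used. The 12 columns of FPKM beside them were left out. Of the tools, DESeq 1.30.0, HTSeq 0.9.1, HISAT2 2.0.5 and cutadapt 1.15 are listed, per the submitters' processing notes, without their roles. None of the sources used here names the genome build. Columns C, M, L and LM were read as control, CS-PA/CNP, PgLPS and both. Their numbers, used as library numbers, could not be matched to the sample titles.

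Counts were tested with edgeR 4.0.16 (R 4.3.3; quasi-likelihood test, TMM factors 0.853 to 1.16, filterByExpr, 1 mean per group, 2-sided), with Benjamini-Hochberg (BH) adjustment over 11656 genes and a threshold of 0.05. CPM divide counts by reads in tested genes times the TMM factor. On data simulated for PgLPS against control (11510 genes), 91.9% of 2-fold and 99.0% of 4-fold changes were recovered and 6.97% of calls were false. In the simulation 99 genes changed 2-fold and 97 changed 4-fold, in both directions, with no shift in scaling between groups. In the data 63.8% of genes were called in that comparison, so these rates may not hold there. Members and lists were chosen with earlier results of these data known. From each list up to 4 called genes with the largest change per comparison could be named, and every T cell partner. Cmtm6, Map3k14 and the markers were named after their values were seen. The values of 1 listed gene are not reported here. Likeness was ranked over 9558 genes reaching a mean of 5 CPM in some group. Alternatives were other scaling, filters, DESeq2 1.42.0, 2-group fits, a block on the column number and leaving out each library. Strandedness is not given.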

Additional observations from a re-analysis of the deposited data

Results flagged for a closer look

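The effect of CS-PA/CNP differed between cells with and without PgLPS for 5 of the 7 members, by the interaction term of the edgeR fit, which was called for 15.8% of all tested genes (8.34% negative and 7.46% positive). It was −0.99 on the log2 scale for Cd40 (edgeR BH-adjusted p = 4.0e-04), −0.98 for Cd86 (edgeR BH-adjusted p = 0.0076), −0.99 for Cd274 (edgeR BH-adjusted p = 4.7e-07) and −0.84 for Icosl (edgeR BH-adjusted p = 8.2e-04). For Cd83 it was 0.64 (edgeR BH-adjusted p = 0.0089). Groups of 3 libraries are too small for a test of single libraries that stand apart.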

How the results depend on the processing

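Each of the 7 genes was recomputed in 6 comparisons under up to 19 alternatives, and in 30 of the 42 the direction and the side of the threshold were the same throughout. When TMM factors gave way to library totals, the count of members that fell went from 1 to 2 in both agents against control and from 1 to 2 in both agents against CS-PA/CNP. In the first, 8493 of 11656 tested genes were called on library totals, 1808 of them higher. In the second, 8048 were called, 1635 of them higher. On that scale Cd80 turned to −0.19 in PgLPS against control and Icosl to −0.02 in CS-PA/CNP against control, neither called. With 1 library left out, members that rose in CS-PA/CNP against control numbered 1 to 2. In that comparison the leave-one-out values ran from −0.09 to 0.17 for Cd80, −0.08 to 0.30 for Cd86 and −0.07 to 0.11 for Icosl. Those for Cd80 ran from −0.14 to 0.10 in both agents against control and from −0.13 to 0.06 in both agents against CS-PA/CNP. Those for Pdcd1lg2 against control with CS-PA/CNP alone ran from −0.82 to 0.15, on 15 reads in control and 13 with CS-PA/CNP. The log2 ratio of Cd86 to Cd80 in CS-PA/CNP against control ran from −0.23 to 0.22 and that of Cd40 to Cd86 from −0.05 to 0.51. The calls named from the lists of other co-signalling genes, CD40 signalling, surface traffic and transcription factors held under every alternative run. Map3k14 was not among the genes recomputed there. Pdcd1lg2 was removed by the filter in the 2-group fits of the 3 comparisons without the PgLPS group. Per-length levels from the authors' FPKM were planned and not run. A replicate block on the number of the count column, which is not matched to a sample title, was chosen after seeing the data. With this replicate block 5 members rose and 1 fell in PgLPS against control, 0 and 4 in both agents against PgLPS, and 1 and 1 in CS-PA/CNP against control, the counts without it, and it changed no member's call in any comparison. Over all genes the calls went from 7433 to 7809, from 2268 to 2905 and from 1431 to 2033. Same-numbered libraries of different groups had correlations of −0.07 to 0.22 in their deviations from the group means, over 0.1 in 4 of 18 pairs. Differently numbered ones had −0.19 to 0.11. For 4 of 12 libraries the own number correlated best in every other group at once. Whether the numbers pair the libraries was not tested, and the main fit takes no pairing.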
